A study of Mus musculus with 15 samples.

Results

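Cytosolic ribosomal protein genes were described in mouse kidney. They were chosen by name, as the rows of the gene table that begin with Rpl or Rps and a digit or that are Rplp0, Rplp1, Rplp2 or Rpsa, without the Rps6k kinases and without names marked as pseudogenes. This gave 86 of 23284 genes, 52 with Rpl names (large, 60S subunit) and 34 with Rps names (small, 40S subunit). Of these, 77 carry the names of ribosome subunits, 8 those of paralogues and 1, Rps19bp1, that of a protein that binds a subunit. The samples were 15 kidneys of wild-type mice (labelled WT) in 3 groups of 5, labelled Vehicle, L-ala (L-alanine) and D-ala (D-alanine), all at 2 h. Messenger RNA was sequenced from total RNA with a stranded kit. The isomers were compared at a matched time only, since the labels state no dose, route or vehicle make-up. Replicate numbers only name samples, and since the labels do not say that samples came from separate animals, p-values here measure the spread between these samples.

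The cytosolic ribosome joins a large subunit, which forms peptide bonds, to a small subunit, which decodes messenger RNA, and each holds many proteins, most of them in a single copy. In vertebrates the messengers of these proteins begin with a C followed by a run of pyrimidines, the 5' terminal oligopyrimidine (TOP) motif. Through it the kinase complex mTORC1, which senses amino acids, controls their translation, more than their abundance. Many of these genes have left processed pseudogenes, copies of the spliced messenger elsewhere in the genome, so that short reads from them can match several places.

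Values are FPKM, fragment counts scaled to gene length and library depth, and groups are given as mean ± SD over 5 libraries. Tests are limma on log2(FPKM + 1), fitted to all 15 libraries over the 11781 genes that reached 1 FPKM in at least 5 of them. A gene is called changed at an adjusted p (Benjamini-Hochberg) under 0.05, and SE is the standard error of a log2 fold change. The depth recovered from the rescaled counts was between 7.57 M and 10.93 M reads per library. Ribosomal protein genes took 0.57% to 0.767% of it. Kidney markers were high in every library, with the summed level of 8 proximal tubule genes at 6806 to 9499 FPKM. L-ala replicate 5 had the lowest ribosomal protein mean of the L-ala libraries, as given below. The check for outlying libraries at the end did not flag that mean. The counts of ribosomal protein genes called in comparisons with the L-ala group are given with and without L-ala replicate 5. Calls of several named genes that it changed are given in the same way.

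The starts of the messengers are shown because the TOP motif is the feature these genes are known for. RefSeq start sites on GRCm38.p6 were matched by symbol for 65 of the 86 genes. A start whose first base is C and whose next 4 bases are each C or T, on the gene's own strand, was found for 13 of these 65 genes (20%) and for 800 of 26960 other genes (2.97%). With such a tract allowed anywhere from 10 bases before to 15 bases after the start, the shares were 60% and 34.3%. Windows of 15 bases before and 15 from the start are printed 5' to 3' for 3 genes with the motif at the start, whose 5 bases are in capitals, and for 5 without it there. They are Rps6 (chr4:86857353-86857382, minus strand), Rpl14 (chr9:120571502-120571531, plus), Rps27 (chr3:90213634-90213663, minus), Rps28 (chr17:33824548-33824577, minus), Rps26 (chr10:128626492-128626521, minus), Rpl23 (chr11:97782425-97782454, minus), Rpl41 (chr10:128549154-128549183, minus) and Rplp0 (chr5:115559452-115559481, plus).
Rps6: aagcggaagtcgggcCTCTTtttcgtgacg
Rpl14: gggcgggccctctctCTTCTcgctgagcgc
Rps27: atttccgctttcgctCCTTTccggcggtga
Rps28: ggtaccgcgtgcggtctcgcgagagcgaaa
Rps26: gtcgggcaagccgccggatcctctttcgag
Rpl23: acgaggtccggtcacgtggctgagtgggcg
Rpl41: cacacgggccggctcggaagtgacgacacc
Rplp0: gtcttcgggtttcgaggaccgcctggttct

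The letters describe annotated starts only. A tract lies some bases after the annotated start in Rps26, for example, where it is not counted as a start match.

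The subunit genes spanned a wide range of levels, although the ribosome holds most of their proteins in equal numbers. The 4 highest were Rplp1, a stalk protein that recruits elongation factors, at a mean of 1331 FPKM over all libraries, Rps15, a protein of the small subunit's head, at 1009, Rpl41, a very short basic peptide, at 1001 and Rpl8, a protein near the peptide-forming centre, at 721.5 FPKM. Rplp1 lay between 1078 and 1373 FPKM in the vehicle libraries. Rps15 and Rpl41 had overlapping ranges there, 875 to 1128 and 889 to 1051 FPKM, so their order is within the spread, and Rpl8 was below both at 628 to 711 FPKM. Rplp0, the stalk base that is often used as a reference transcript, was at 278 FPKM. Of the 77 subunit genes, 27 were at 100 FPKM or more and 15 were under 1 FPKM, and the highest was at 5392 times the lowest.

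Several core subunit genes were listed at very low levels. Rpl11, which together with Rpl5 holds the 5S RNA in the large subunit and binds Mdm2 when ribosome assembly fails, was listed at 0 in 5 of 15 libraries and at no more than 1.01 FPKM in any (L-ala replicate 3). Its vehicle libraries were listed at 0.312, 0.247, 0.238, 0 and 0 FPKM. Rpl5 had a mean of 6.35 FPKM. Rps6, the subunit protein that the S6 kinases phosphorylate, had a mean of 7.99 FPKM, and Rps27a, made as a fusion with ubiquitin, 2.57 FPKM. The lowest tested genes were Rpl10, which completes the tRNA-binding face of the large subunit, at 0.799 FPKM, Rpl23a, at the exit of the peptide tunnel, at 0.931, and Rpl27 at 1.22 FPKM. Below the filter were 13 subunit genes, at means of 0.247 to 0.799 FPKM: Rps13, Rpl11, Rpl26, Rps23, Rpl10a, Rps29, Rpl9, Rps12, Rpl36a, Rpl28, Rpl12, Rpl24 and Rps16.

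The level went with how much of a transcript is unique. For each gene the share of 50-base stretches of its main GENCODE M21 transcript that occur in the transcript of no other gene was computed. Its median was 41.3% over the 86 genes and 100% over 20184 protein-coding genes. Fewer than 50% of the stretches were unique in 50 of the 86 genes and in 6.34% of coding genes, and 81 of the 86 shared a stretch with an annotated pseudogene. The 17 subunit genes with under 20% unique sequence had a median of 4.11 FPKM, the 31 with 20% to 49% a median of 40.1 FPKM, and the 29 with 50% or more a median of 250 FPKM. Across the 77 genes the Spearman correlation of level with unique share was 0.56 and with gene length -0.01, as a description over genes that share the same libraries. Rps27, with 1.4% unique sequence, was at 1.86 FPKM, Rpl5, with 6.2%, at 6.35, and Rpl10, with 7.9%, at 0.799. Rps18, with 13.3%, was at 129 FPKM and Rps29, with 64.2%, at 0.388, so the relation has exceptions on both sides. These last 2 genes were chosen after their values were seen. How reads that match several places were handled is not given in the sources used here, and their part in the levels was not tested. Levels of these genes are therefore uncertain. Differences between groups compare the same gene under the same counting, but whether reads from other places enter those differences was not tested either.

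**Figure D1:**
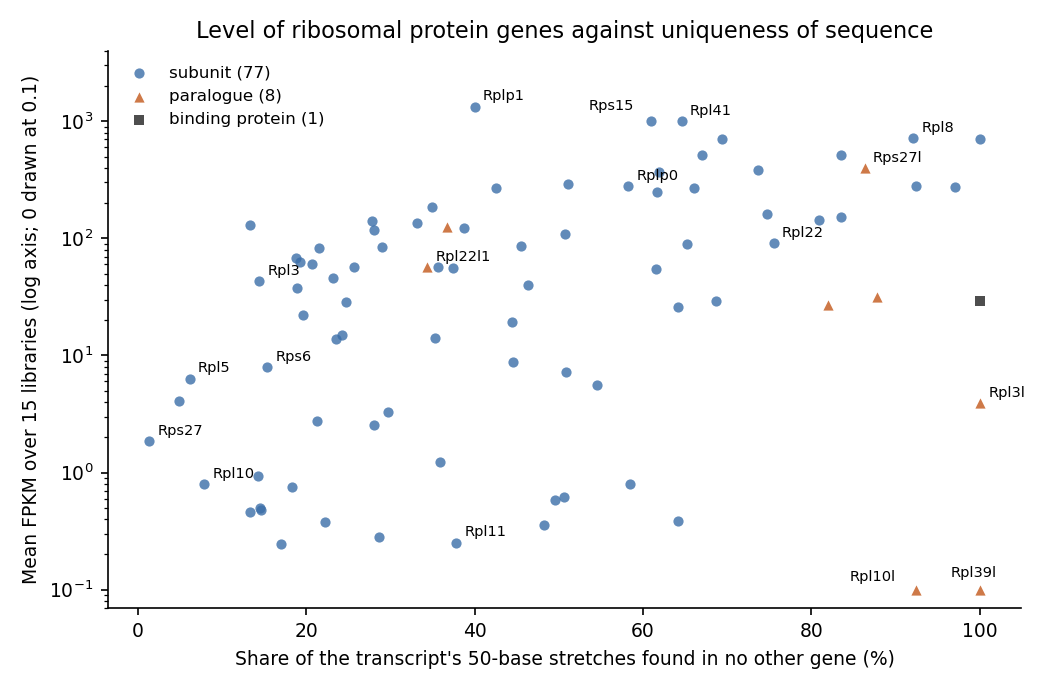
Mean FPKM over 15 libraries (log axis, genes listed at 0 drawn at 0.1) of each of the 86 genes against the share of its transcript's 50-base stretches found in no other gene (%). Points are genes, with 77 subunits as circles, 8 paralogues as triangles and 1 binding protein as a square; subunit genes under 20% unique have a median of 4.11 FPKM and those at 50% or more a median of 250 FPKM.

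The 8 genes with paralogue names are given here, all but Rpl7l1, Rpl10l and Rpl39l beside their parent genes. The unique share of the transcript differed within these pairs, so differences in level within a pair are uncertain. It was 86.3% in Rps27l and 1.4% in Rps27, and 36.7% in Rpl36al and 14.5% in Rpl36a. Among the paralogues in these pairs, only Rpl22l1 had a lower share than its parent (34.4% against 75.5%). Rps27l, a p53 target close in sequence to Rps27, was at 374 ± 32.9 FPKM under vehicle, 438 ± 47.5 under L-ala and 388 ± 15.9 under D-ala, and Rps27 itself at 1.42 ± 0.623, 2.57 ± 1.33 and 1.59 ± 0.497. Rpl22l1 was at 47.6 ± 7.51, 67.3 ± 18.9 and 54.9 ± 8.05 FPKM, below Rpl22, an RNA-binding subunit protein, at 88.9 ± 3.81, 101.8 ± 15.5 and 81.9 ± 3.96. Rpl3l, the striated muscle form, was at 3.23 ± 0.665, 4.45 ± 1.24 and 4.13 ± 0.32 FPKM, and Rpl3, the large subunit protein it replaces there, at 42.2 ± 4.6, 45 ± 3.98 and 41.6 ± 1.88. Rpl36al was at 111 ± 9.56 FPKM under vehicle while Rpl36a was below the filter. Rpl10l and Rpl39l, forms known from male germ cells, were listed at 0 in all 15 libraries. Rpl7l1, which acts in the assembly of the large subunit, was at 32.3 ± 2.36, 32 ± 1.92 and 30.5 ± 1.43 FPKM. Rps4y2, the table's older name for Rps4l, which GENCODE M21 lists as a transcribed processed pseudogene, was at 25.9 ± 1.93 FPKM under vehicle against 136 ± 3.38 for Rps4x. The binding protein Rps19bp1 was at 27.0 ± 3.87, 33.6 ± 5.33 and 27.2 ± 2.49 FPKM, beside 144 ± 16.4, 189 ± 37.5 and 147 ± 12.6 for Rps19, the small subunit protein most often altered in Diamond-Blackfan anaemia. None of the 6 tested paralogues passed for D-ala against either other group, and 1, Rpl36al, passed for L-ala against vehicle. Without L-ala replicate 5, 4 passed for L-ala against vehicle, all higher: Rpl36al, Rps27l (limma adjusted p = 0.0086), Rpl22l1 (0.0160) and Rps4y2 (0.0342). Between the isomers 3 were then lower under D-ala, Rps27l (limma adjusted p = 0.0208), Rpl36al (0.0317) and Rps4y2 (0.0391). Without that library, 21.9% of all genes tested were called for L-ala against vehicle and 23.4% between the isomers. Rps19bp1 also passed without that library, 0.40 higher under L-ala than under vehicle (limma adjusted p = 0.00851) and at -0.38 between the isomers (0.00885).

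D-alanine against vehicle showed no ribosomal protein gene past the test in either direction. Of the 71 tested, 0 rose and 0 fell with limma at an adjusted p under 0.05, and 4 had an unadjusted p under 0.05 (1 higher, 3 lower). Over all genes tested, 11.5% were called in this comparison, 6.53% higher and 4.92% lower. The median log2 fold change of the 71 was -0.01, against 0.001 over all genes tested, with 35 above and 36 below 0. For 59 of the 71 the 95% interval lay between -0.5 and 0.5, so changes of that log2 size are outside the interval for these and not for the other 12. The voom fit to the rescaled counts called 0 higher and 2 lower, and the fit with only these groups also 2 lower. After quantile normalization 7 were lower, 9.9% of the 71, beside 13.4% called of all genes tested.

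The 3 genes with the smallest p under D-ala, with values as measured, were all lower, and all belong to the large subunit. Rps14, of the small subunit, was not called there. It was called lower with the length trend removed (-0.21, limma adjusted p = 0.00359) and after quantile normalization, and was picked after its value was seen. Rpl14 (GRCm38 chromosome 9, 120571444 to 120574654) was at 128, 98.6, 102, 94.9 and 140 FPKM in the vehicle libraries and at 87.5, 89.8, 80.0, 83.5 and 85.3 under D-ala. Every D-ala library was below every vehicle library. The log2 fold change was -0.38 (SE 0.16, limma adjusted p = 0.128), and the adjusted p was 0.0160 without L-ala replicate 5, which shares the estimate of the spread, and 0.0315 with each library's trend with gene length removed. Rpl19, a large subunit protein at the bridge between the subunits, had 66.4 ± 7.95 FPKM in the vehicle group and 53.2 ± 5.32 in the D-ala group (-0.31, SE 0.12, limma adjusted p = 0.0970). It passed without vehicle replicate 2 (adjusted p = 0.0424) or L-ala replicate 5 (0.0351). Rpl7a, at the surface of the large subunit, had 76.1 ± 11.3 FPKM in the vehicle group and 63.0 ± 5.44 in the D-ala group (-0.26, SE 0.10, limma adjusted p = 0.0899). Its vehicle libraries overlapped those under D-ala, at 66.1 to 88.8 against 57.1 to 70.3 FPKM. Both Rpl19 and Rpl7a were called lower with the length trend removed (limma adjusted p = 0.0322 and 0.0371), after quantile normalization (0.0385 and 0.0306) and with voom (0.0409 and 0.0315), and Rpl19 also with only the groups compared (0.0408).

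Under L-alanine, 9 of the 71 tested ribosomal protein genes rose against vehicle, 0 fell and 62 did not pass. Over all genes tested, 11% were called, with 6.48% higher and 4.53% lower. The called share of ribosomal protein genes, 12.7%, is near that background, and all 9 were higher. The median log2 fold change was 0.23, against 0.007 over all genes tested, and 65 of the 71 were above 0. Of 42 large subunit members 4 rose, and of 29 small subunit members 5 rose. Among the genes that rose were Rps28, Rps26, Rpl36al, Rpl23 and Rpl21, with Rplp2, Rps21 and Rps6. The naming rule does not cover Rplp2 and Rps21, which were picked once their values had been seen.

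Rps28, a small protein near the messenger's exit channel (chromosome 17, 33819027 to 33824562), had the largest rise of those called. It was at 12.99, 12.7, 10.6, 13.1 and 13.3 FPKM in the vehicle libraries and at 23.4, 22.5, 22.6, 20.7 and 15.6 under L-ala. Every L-ala library, replicate 5 included, was above every vehicle library. The log2 fold change was 0.69 (SE 0.13, limma adjusted p = 0.00638, range over its alternatives 0.00157 to 0.166).

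Rpl23, a large subunit protein at the bridge to the small subunit that also binds Mdm2 (chromosome 11, 97777527 to 97782437), was at 79.7 ± 6.54 FPKM under vehicle and at 95.8, 89.4, 103, 119 and 93.6 under L-ala. All 5 L-ala libraries were above the highest vehicle library, at 88.7 FPKM. The log2 fold change was 0.32 (SE 0.08, limma adjusted p = 0.0206), and the call was lost without vehicle replicate 4 (adjusted p = 0.0683) or L-ala replicate 4 (0.0536). Rps26, at the messenger exit of the small subunit, rose from 217 ± 27.3 to 293 ± 45.9 FPKM (0.43, SE 0.12, limma adjusted p = 0.0296), and Rpl36al from 111 ± 9.56 to 142 ± 22.4 (0.34, SE 0.09, limma adjusted p = 0.0262). Both overlapped the vehicle libraries, and both calls were lost without vehicle replicate 2 (adjusted p = 0.0667 and 0.0622), vehicle replicate 4 (0.0884 and 0.0770) or L-ala replicate 4 (0.0857 and 0.0535), and that of Rps26 also without L-ala replicate 1 (0.0689) or 3 (0.0677). With the length trend removed Rps26 was at 0.14 (limma adjusted p = 0.201) and Rpl36al at 0.07 (0.553), and Rpl23 at 0.18 (0.0641). Rpl21 rose from 17.9 ± 1.27 to 22.7 ± 3.07 FPKM (0.32, SE 0.10, limma adjusted p = 0.0467), a call lost, with an adjusted p of 0.0542 to 0.129, without any of the first 4 vehicle libraries, the first 4 L-ala libraries or the last 3 D-ala libraries. With the length trend removed it was at 0.26 (limma adjusted p = 0.0863).

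Rps6, whose start carries the TOP motif printed above, was at 6.51, 7.40, 7.35, 7.65 and 7.55 FPKM under vehicle and at 10.04, 8.82, 10.02, 8.02 and 8.32 under L-ala. The groups did not overlap, and the log2 fold change was 0.27 (SE 0.08, limma adjusted p = 0.0440). The call was lost, with an adjusted p of 0.0520 to 0.101, when any vehicle library, any of the first 4 L-ala libraries, or D-ala replicate 1 or 3 was left out, and it was lost with the length trend removed (0.17, limma adjusted p = 0.205). Rplp0 was at 272 ± 13.6 FPKM under vehicle and 296 ± 24.8 under L-ala (0.12, SE 0.07, limma adjusted p = 0.236). Rplp1 was at 1220.4 ± 105.2 and 1546 ± 255.3 FPKM (0.33, SE 0.11, limma adjusted p = 0.0524), and Rps15 at 966 ± 103 and 1155 ± 209 (0.24, SE 0.12, limma adjusted p = 0.162). Rpl3 was at 0.09 (limma adjusted p = 0.420), Rpl5 at 0.04 (0.910), Rpl8 at 0.18 (0.119), Rps27a at 0.23 (0.393) and Rps19 at 0.37 (0.0614). Without L-ala replicate 5, 4 of these passed: Rplp1 (0.42, limma adjusted p = 0.00601), Rps15 (0.36, 0.0116), Rpl8 (0.25, 0.0136) and Rps19 (0.49, 0.0031). Rplp1 also passed without vehicle replicate 5 (adjusted p = 0.0424) or L-ala replicate 2 (0.0498). By start, the 12 tested genes with the TOP motif at the annotated start had a median log2 fold change of 0.29 with 3 called, and the 39 with an annotated start and no motif there a median of 0.22 with 4 called. The share called of all genes tested was 11%. For D-ala against vehicle the medians by start were 0.06 with the motif and -0.01 without, with 0 called in each. Between the isomers they were -0.24 and -0.25, with 2 and 5 called. The medians that involve the L-ala group include L-ala replicate 5, and gene length was not taken out of any of them.

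**Figure D2:**
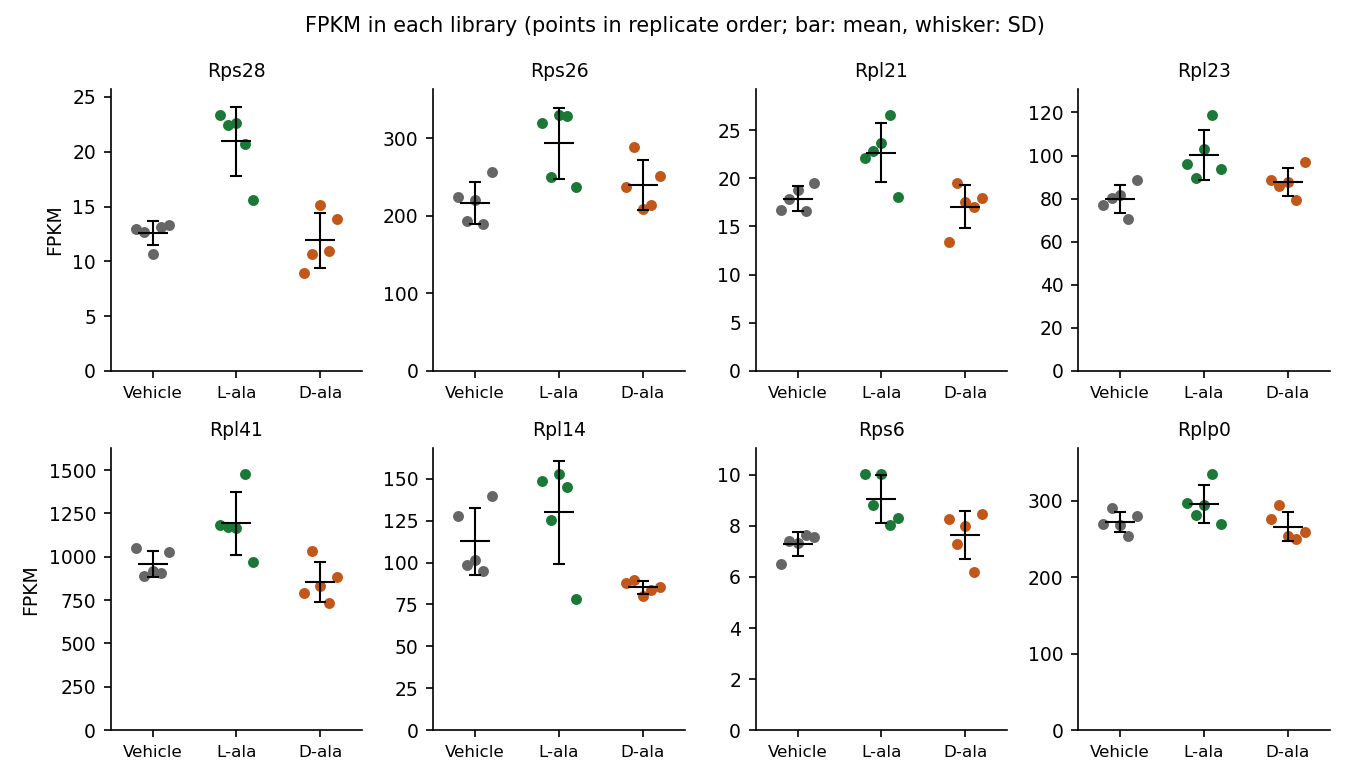
FPKM in each library for 8 named genes, on linear axes from 0, with points in replicate order, bars for group means and whiskers for the SD (n = 5). The L-ala libraries of Rps28 (15.6 to 23.4 FPKM) are all above those under vehicle (10.6 to 13.3 FPKM). In Rpl41 and Rpl14 the fifth L-ala library is the lowest of the L-ala libraries.

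The L-ala libraries did not move together. The mean log2(FPKM + 1) of the 71 tested genes was 6.11, 5.95, 6.17 and 6.21 in L-ala replicates 1 to 4 and 5.70 in replicate 5. It ran from 5.70 to 5.95 in the vehicle libraries and from 5.70 to 5.88 in the D-ala libraries. Replicates 1, 3 and 4 were above every vehicle library, replicate 2 was level with the highest and replicate 5 level with the lowest. In L-ala replicates 1 to 5, the genes above all 5 vehicle libraries numbered 53, 26, 59, 57 and 7 of 71. Genes below all 5 numbered 1, 3, 0, 2 and 24. Without L-ala replicate 5, 42 of the 71 genes rose against vehicle and 0 fell, and the median was 0.32. All 9 called with all libraries were among the 42. Of all genes tested, the share called also went from 11% to 21.9%, with 1529 of 11781 higher and 1051 lower. Leaving out vehicle replicate 1, 2, 4 or 5 left 5, 4, 1 and 15 ribosomal protein genes that rose. The number was 4 without L-ala replicate 1, 3 without replicate 3 and 1 without replicate 4.

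**Figure D3:**
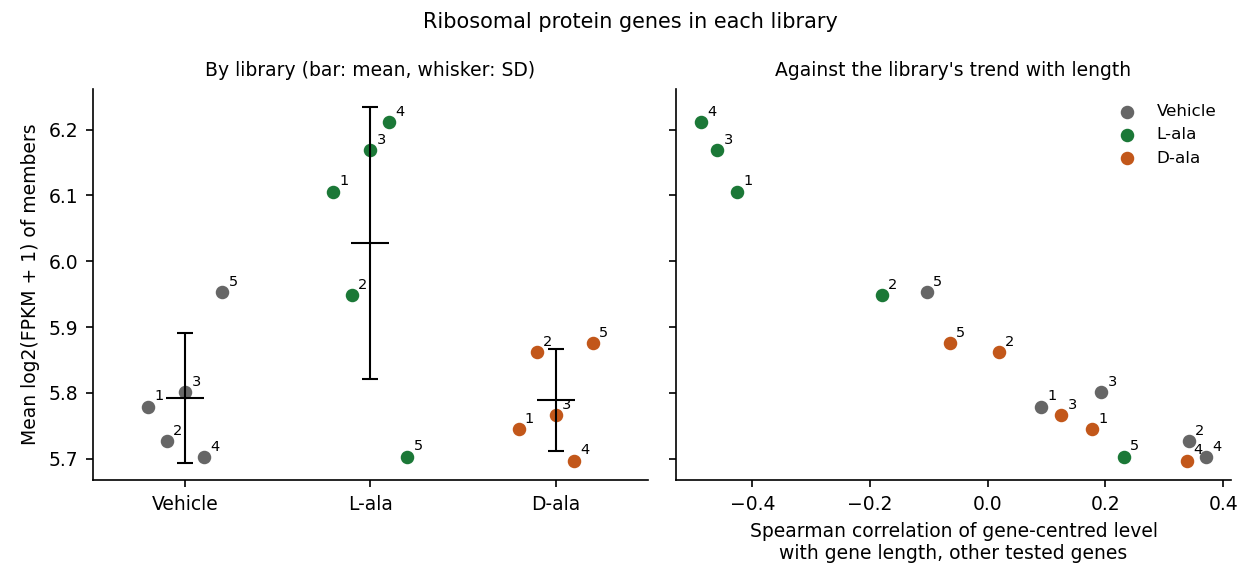
Mean log2(FPKM + 1) of the 71 tested genes in each library, by group (left; bar, mean; whisker, SD; n = 5) and against the Spearman correlation of gene-centred level with gene length over the other tested genes of the same library (right). Numbers are replicates; L-ala replicates 1, 3 and 4 have the highest means (6.11 to 6.21) and the most negative correlations (-0.43 to -0.49), and L-ala replicate 5 is at 5.70 and 0.23.

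Gene length moved with these values. Ribosomal protein genes are short, with a median length of 543 bases as implied by the deposited values. Over the other tested genes, the Spearman correlation of gene-centred level with length was -0.43, -0.18, -0.46, -0.49 and 0.23 in L-ala replicates 1 to 5. It was -0.10 to 0.37 in the vehicle libraries and -0.06 to 0.34 in the D-ala libraries. In each group the library with the most negative value had the highest ribosomal protein mean and the library with the most positive value the lowest. For L-ala against vehicle, the 125 other genes under 300 bases had a median log2 fold change of 0.25, beside 0.32 for the 14 ribosomal protein genes of that length. From 300 to under 600 bases the medians were 0.23 for 390 other genes and 0.21 for 22 ribosomal protein genes. From 600 to under 1200 bases they were 0.16 for 1317 others and 0.19 for 23 ribosomal protein genes, and from 1200 to under 2400 bases 0.06 for 3368 others and 0.14 for 10. Other genes of 2400 bases or more had a median of -0.05. Of other genes of 300 to under 600 bases, 19.7% were called higher, beside 2 of 22 ribosomal protein genes. Without L-ala replicate 5 the figures were 47.7% and 13 of 22.

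With each library's trend with length removed, the median of the 71 genes for L-ala against vehicle was 0.01, and 1 rose and 2 fell. The share called was 4.2% of the 71, below the 6.4% of all genes tested. Those that fell were Rpl7a (-0.37, limma adjusted p = 0.0186) and Rpl19 (-0.34, adjusted p = 0.0450). Rps28 was at 0.33 (SE 0.13, limma adjusted p = 0.123). With the trend removed and L-ala replicate 5 left out as well, an alternative chosen after seeing the data, 6 rose, 4 fell and the median was 0.04. In that fit 14.1% of the 71 were called, beside 9.7% of all genes tested. After quantile normalization 1 rose (1.4%, beside 4.9% called of all genes tested) and the median was 0.10. Whether the length trend came from the samples or from their RNA and libraries was not tested.

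**Figure D4:**
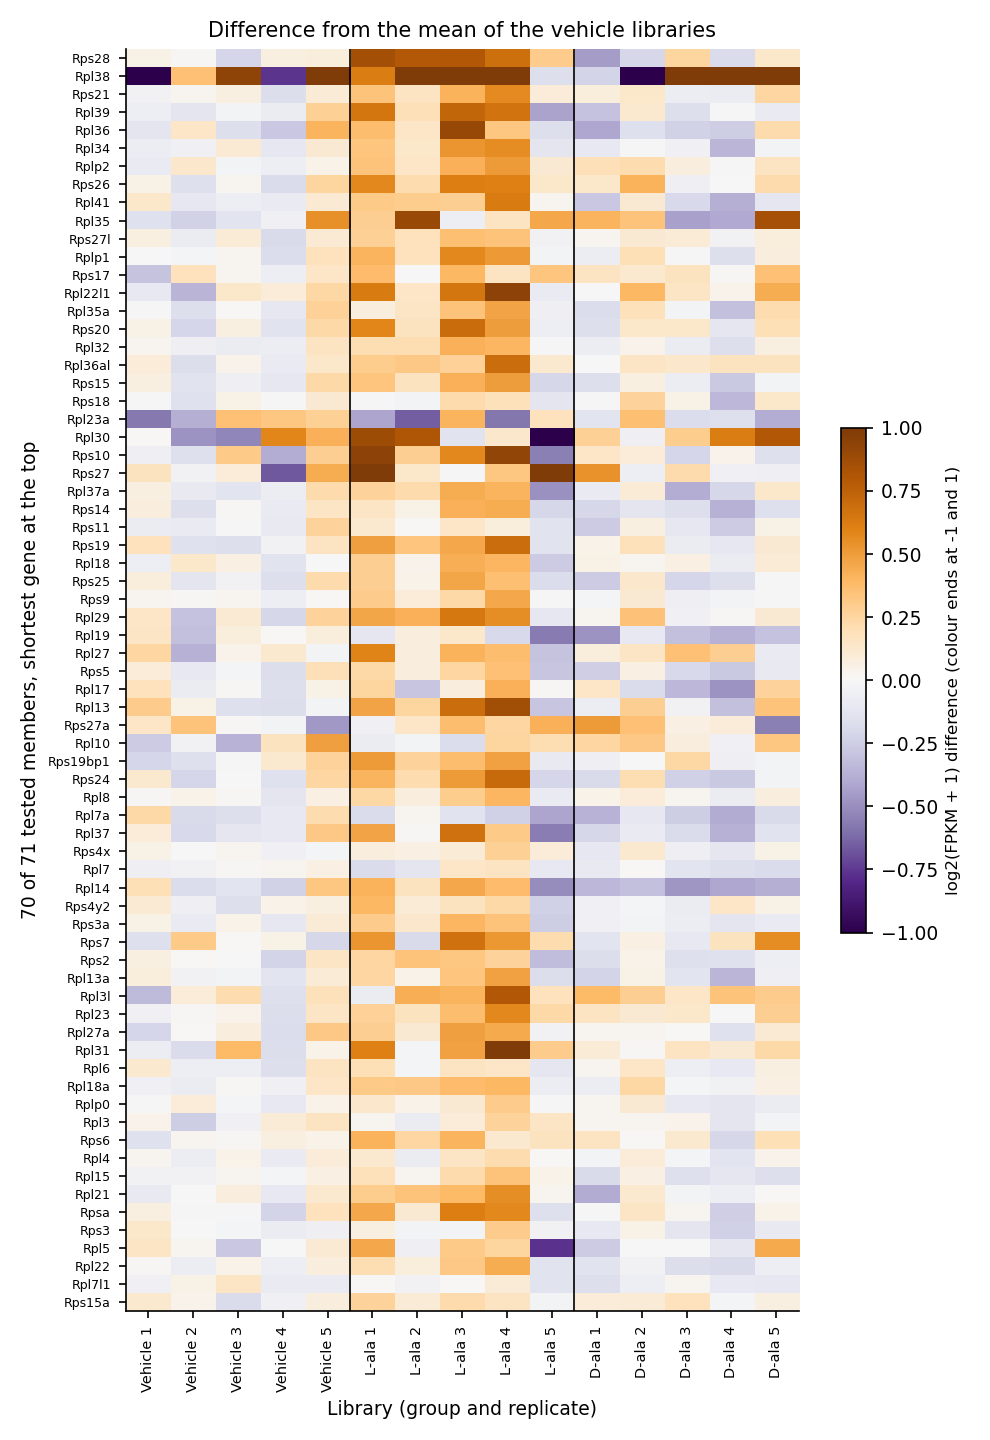
Difference of log2(FPKM + 1) from the mean of the 5 vehicle libraries for the tested genes described here (rows, shortest gene at the top) in the 15 libraries (columns). Colours end at -1 and 1; L-ala replicates 1, 3 and 4 are raised in most rows (53, 59 and 57 of 71 above all vehicle libraries), and L-ala replicate 5 is not (7 of 71).

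Markers of other cells also differed between the groups, some of them under both isomers. The summed level of 8 red blood cell genes was 53.5 to 299 FPKM under vehicle, 309 to 787 under L-ala and 75.0 to 507 under D-ala, with 7 genes tested and 0 called for L-ala against vehicle. In L-ala replicate 5, where the ribosomal protein genes were low, that sum was 517 FPKM. The sum of 5 neutrophil genes was 0.641 to 7.81, 13.1 to 35 and 2.42 to 11.3 FPKM in the same order, with 2 tested and both called higher under L-ala. Proximal tubule markers summed to 6806 to 7445 FPKM under vehicle, 8030.0 to 8767 under L-ala and 8094 to 9499 under D-ala. Thick ascending limb genes summed to 1859 to 2128 FPKM under vehicle and 1225 to 1684 under L-ala, with 1 of 5 called lower. Under D-ala they summed to 1300 to 2019 FPKM, also with 1 called lower against vehicle. Intercalated cell genes summed to 110.8 to 122.4 FPKM under vehicle and 124.9 to 149.9 under L-ala, with 1 of 5 called higher. Under D-ala they summed to 119.5 to 138.2 FPKM, with 2 called higher against vehicle. In both lists the L-ala range did not overlap that of vehicle, while the D-ala range did. Of 6 endothelial genes, which summed to 51.1 to 84.1 FPKM under vehicle and 37.3 to 74.9 under L-ala, 4 fell under L-ala. Under D-ala these genes summed to 41.9 to 60.3 FPKM, and 1 fell against vehicle. The part of these markers in the ribosomal protein values was not tested. In whole kidney, a different mix of cells and a different amount of RNA per cell cannot be told apart.

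Between the isomers, 11 of the 71 ribosomal protein genes were lower under D-ala than under L-ala, 0 were higher and 60 did not pass. Over all genes tested, 13.7% were called, with 7.01% higher and 6.66% lower, and 15.5% of the ribosomal protein genes. The median log2 difference was -0.25, against -0.009 over all genes tested, and 68 of the 71 were below 0. This comparison shares its L-ala libraries with the one above, so the values are not separate evidence of it. Among the 11 were Rps28, Rpl14, Rpl41, Rpl34 and Rpl21, with Rpl22, Rpl15, Rpl32, Rps14 and Rpl13a, the last 4 chosen after their values were seen. The 11 were 8 of 42 tested large subunit members and 3 of 29 small subunit members.

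Rps28 was at 8.92, 10.7, 15.1, 10.9 and 13.9 FPKM under D-ala, all below the lowest L-ala library at 15.6. The log2 difference was -0.78 (SE 0.13, limma adjusted p = 0.00165). It passed in every fit that left out 1 library (0.000264 to 0.00620) and with the length trend removed (-0.42, adjusted p = 0.0386). With L-ala replicate 5 left out of that length fit it did not pass (-0.40, adjusted p = 0.0573). Rpl41 was at 1184, 1169, 1166, 1478 and 968 FPKM under L-ala and at 789, 1033, 831, 734 and 881 under D-ala. L-ala replicate 5 was below the highest D-ala library, and the difference was -0.48 (SE 0.10, limma adjusted p = 0.00901; 0.0735 with the length trend removed). Rpl14 was at 148.5, 125, 153, 145 and 78.1 FPKM under L-ala, where replicate 5 was the lowest of all 15 libraries. Its difference was -0.56 (SE 0.16, limma adjusted p = 0.0286). Leaving out L-ala replicate 1 (adjusted p = 0.0690), 3 (0.0707) or 4 (0.0779) ended that call, as did leaving out D-ala replicate 1 (0.0517), 3 (0.0630) or 4 (0.0554).

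Rpl21 was at 17.1 ± 2.26 FPKM under D-ala (-0.39, SE 0.10, limma adjusted p = 0.0182; 0.0536 without L-ala replicate 4). Rpl34 was at 339 ± 64.2 FPKM under L-ala and 255.3 ± 23.2 under D-ala (-0.39, SE 0.11, limma adjusted p = 0.0290). Leaving out L-ala replicate 1 (adjusted p = 0.0612), 3 (0.0739) or 4 (0.0824) ended this call too, as did leaving out D-ala replicate 1 (0.0550) or 4 (0.0725). With the length trend removed it was at -0.09 (limma adjusted p = 0.182). Rpl36al (-0.22, limma adjusted p = 0.107), Rps26 (-0.28, 0.107) and Rpl23 (-0.19, 95% interval -0.35 to -0.02, 0.122), which rose under L-ala against vehicle, did not pass between the isomers. Rpl36al and Rps26 passed there without L-ala replicate 5 (limma adjusted p = 0.0317 and 0.0309).

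Without L-ala replicate 5, 41 of the 71 genes were lower under D-ala than under L-ala, the 11 among them. Of all genes tested, 23.4% were then called, with 1261 of 11781 higher and 1500 lower. Ribosomal protein genes that were lower numbered 6 without L-ala replicate 1, 5 without replicate 3 and 3 without replicate 4. They numbered 5, 6 and 5 without D-ala replicate 1, 3 or 4. With the length trend removed, 7 were lower and 1, Rps18, was higher, with a median of -0.07. The share called was 11.3% of the 71, near the 11.4% of all genes tested. Those 7 were all among the 11, and included Rpl14 (-0.41, limma adjusted p = 0.0304), Rpl21 (-0.35, 0.0211), Rps28, Rpl22 (-0.27, 0.0286), Rpl15 (-0.23, 0.0163) and Rps14 (-0.14, 0.0371). Rps18 was at 0.22 (adjusted p = 0.0475) and was chosen after its value was seen.

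**Figure D5:**
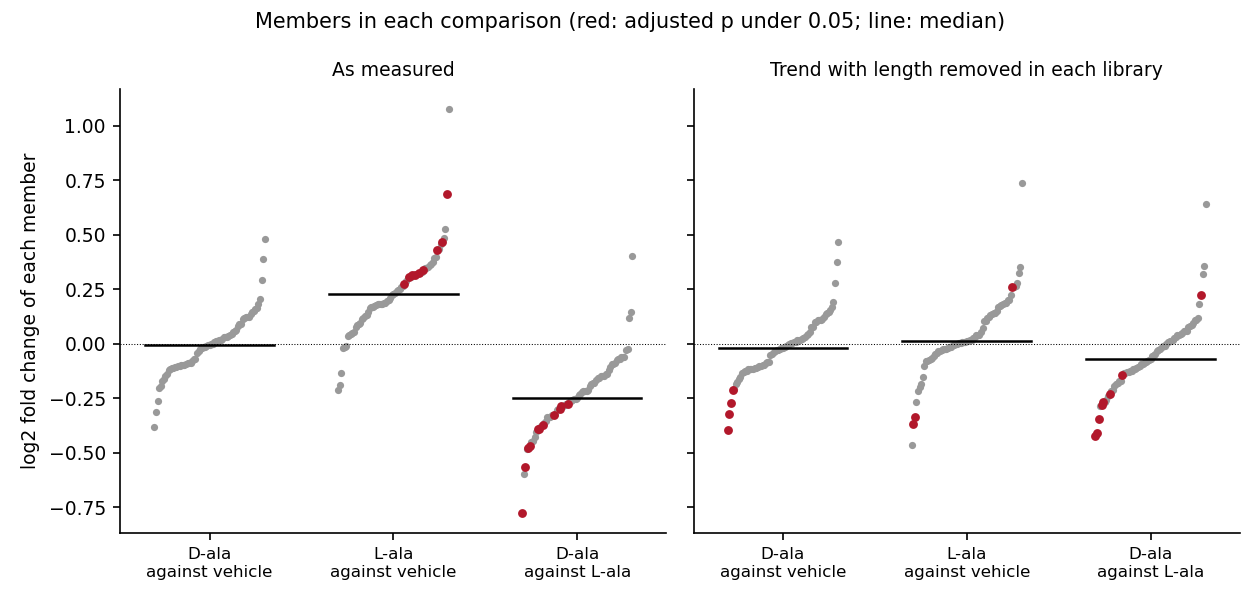
Log2 fold change of each of the 71 tested genes in the 3 comparisons, ordered within each, as measured (left) and with each library's trend with gene length removed (right). Red points are genes with an adjusted p under 0.05 and lines are medians, which are -0.01, 0.23 and -0.25 on the left and -0.02, 0.01 and -0.07 on the right.

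Of 3 ribosomal protein genes outside the naming rule, 0 passed in either comparison with vehicle and 1 was lower between the isomers. Fau, which makes a small subunit protein fused to a ubiquitin-like protein, was at 3.48 ± 0.632 and 4.94 ± 1.47 FPKM (0.38, SE 0.17, limma adjusted p = 0.144; 0.0392 without L-ala replicate 5). Gnb2l1 (Rack1), a scaffold on the small subunit, was lower under D-ala than under L-ala (-0.20, SE 0.06, limma adjusted p = 0.0456, range over its alternatives 0.00899 to 0.571).

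The related lists below are read against the shares of all genes called, 11.5% for D-ala against vehicle, 11% for L-ala against vehicle and 13.7% between the isomers. The first holds other genes whose messengers are known to carry the TOP motif. Of 17 tested, 0 rose and 0 fell under D-ala against vehicle, with a median of -0.07. Under L-ala 1 rose and 2 fell, with a median of 0.09. Nap1l1, a histone chaperone, rose (0.19, limma adjusted p = 0.0458), and Pabpc1, the poly(A)-binding protein (-0.23, 0.0366), and Eef2, which moves the ribosome along the messenger (-0.17, 0.0499), fell. Between the isomers 2 were lower under D-ala, Npm1, a nucleolar chaperone (-0.30, limma adjusted p = 0.0369), and Eef1d, an exchange factor for elongation (-0.24, 0.0493). Each of these 5 calls was lost in fits that left out 1 library, at 10, 8, 13, 6 and 12 of the 15 libraries for Nap1l1, Pabpc1, Eef2, Npm1 and Eef1d, with adjusted p-values up to 0.117, 0.0976, 0.115, 0.104 and 0.133. Without L-ala replicate 5, Nap1l1 was the call of these that was lost (adjusted p = 0.0582). After quantile normalization Nap1l1 was at 0.11 (limma adjusted p = 0.275).

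Of 26 tested initiation factors, 1 rose and 2 fell under D-ala, 0 changed under L-ala (medians 0.02 and 0.13), and 0 were higher and 3 lower between the isomers. Eif4g2, a scaffold related to Eif4g1 that lacks the cap-binding partner site, fell under D-ala (-0.24, SE 0.06, limma adjusted p = 0.0124), in every fit that left out 1 library. Eif5, which triggers start codon commitment, fell against vehicle (-0.23, SE 0.06, limma adjusted p = 0.0214), a call that ended when vehicle replicate 3 (adjusted p = 0.0543) or either of D-ala replicates 3 (0.0582) and 4 (0.0508) was left out. It was also lower than under L-ala (-0.28, SE 0.06, limma adjusted p = 0.00733). Eif3d, a cap-binding subunit of the Eif3 complex, rose under D-ala (0.18, limma adjusted p = 0.0474), with adjusted p-values of up to 0.105 when 1 library was left out. Eif3i (-0.21, limma adjusted p = 0.0309) and Eif3m (-0.25, 0.0341), of the same complex, were lower between the isomers. Their adjusted p-values ran up to 0.0763 and 0.0955 in those fits. Over all 26 alternatives the limma adjusted p-values of Eif3d, Eif3i and Eif3m ran up to 0.14, 0.288 and 0.255.

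Genes of a list drawn up for mTORC1 and TOP control were tested for their transcripts only, and 32 of 33 passed the filter. Under L-ala 1 rose and 1 fell. Ddit4, an inhibitor of mTORC1 that stress induces, rose (2.51, SE 0.51, limma adjusted p = 0.0146). Its adjusted p was 0.0505 with only the groups compared and 0.0753 without the 3 libraries of lowest depth. Those are vehicle replicate 1 and L-ala replicates 4 and 5. Tsc1, of the complex that holds mTORC1 off, fell (-0.34, SE 0.07, limma adjusted p = 0.00974). It was at -0.20 (limma adjusted p = 0.0697) with the length trend removed and L-ala replicate 5 left out. Under D-ala 1 rose and 2 fell. These were Eif4ebp3, an inhibitor of the cap-binding factor (0.81, limma adjusted p = 0.0494), Maf1, a repressor of RNA polymerase III (-0.24, 0.0278), and Pdcd4, an inhibitor of the helicase Eif4a1 (-0.25, 0.0320), with adjusted p-values of up to 0.111, 0.0665 and 0.0824 when 1 library was left out. Between the isomers 3 were higher under D-ala and 1 lower. Mtor, the kinase itself, was higher (0.42, SE 0.09, limma adjusted p = 0.00901), in every fit that left out 1 library. Over its 26 alternatives its adjusted p ran from 0.000908 to 0.0263. Rps6kb2, an S6 kinase, was higher (0.28, limma adjusted p = 0.0311, up to 0.0799 without 1 library), and Maf1 was lower (-0.23, 0.0337, up to 0.0851). The third that was higher was Tsc1 (0.23, limma adjusted p = 0.0384), named outside the rule after its value was seen.

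Of 14 tested partners that import, chaperone or assemble ribosomal proteins, 3 rose and 0 fell under D-ala, with a median of 0.13. Ltv1, which loads the small subunit's beak proteins, rose (0.30, SE 0.07, limma adjusted p = 0.0131), in every fit that left out 1 library. Nmd3, the export adaptor of the large subunit (0.31, limma adjusted p = 0.0371), and Xpo1, the exportin it uses (0.35, 0.0371), rose as well, each with adjusted p-values of up to 0.0850 and 0.0851 without 1 library. Under L-ala 2 rose and 0 fell. These were Zfp622, a late factor of the large subunit (0.27, limma adjusted p = 0.0380), and Bccip, a chaperone of Rpl23 (0.20, 0.0444). Their adjusted p-values ran up to 0.108 and 0.121 without 1 library. Bccip was at 0.08 (limma adjusted p = 0.223) with the length trend removed and at 0.04 (0.535) after quantile normalization. Mdm2, the p53 ligase that free Rpl5, Rpl11 and Rpl23 bind, was higher in the D-ala than in the L-ala group (0.23, limma adjusted p = 0.0413). Its adjusted p ran up to 0.111 without 1 library and to 0.135 over all alternatives. In ribosome rescue and quality control, 13 genes were tested and 0 changed under D-ala against vehicle. Hbs1l, a rescue GTPase, rose under L-ala (0.20, limma adjusted p = 0.0413, up to 0.105 without 1 library and 0.22 with voom). Gcn1l1, which senses stalled ribosomes, was higher in the D-ala than in the L-ala group (0.47, SE 0.11, limma adjusted p = 0.0165), in every fit that left out 1 library, and Pelo, the partner of Hbs1l, was lower (-0.38, 0.0259, up to 0.0590).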

How the data were processed

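Per the labels' protocols, kidney RNA came from a TRIzol extraction and went into TruSeq stranded mRNA libraries. TopHat2 2.0.13, Bowtie2 2.2.3, SAMtools 0.1.19 and mm10 are named per the submitters' processing notes. Not given in the sources used here: the program behind the per-gene values, its annotation, its use of strand and its handling of reads with several matches. The authors deposited FPKM per gene and library. A column headed as counts, deposited beside it, holds counts multiplied by a library factor and rounded, so it was treated as a score. The main tests used no count model, and voom was run on this column only as an alternative. Genes at 1 FPKM or more in at least 5 of 15 libraries were tested (11781) with limma 3.58.1 (R 4.3.3) on log2(FPKM + 1), with Benjamini-Hochberg adjustment over all of them, after the script was tested on simulated data. A fold change on this scale understates that of low genes. The length trend was removed per library by a loess fit (span 0.5).

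Members and lists were chosen with earlier results of these data known. The named genes were, per comparison, up to 6 called genes with the largest rise and fall, or the 3 with the smallest p where fewer than 3 were called. To these were added the 4 highest and 3 lowest tested genes, a fixed list (Rps6, Rplp0, Rpl3, Rpl5, Rpl11, Rps19, Rps27a, Fau, paralogues and their parents) and up to 3 called genes per related list. Values of 2 genes that the rule covers are not reported here, though counts and medians include them. Alternatives were the pseudocount, filter, scaling, quantile normalization, length and GC trends, voom on the rescaled counts, pairwise fits, leaving out each library, and leaving out the 3 of lowest depth. Start sites came from RefSeq and transcripts from GENCODE M21, both on GRCm38. Marker lists also covered other tubule segments, podocytes, fibroblasts, macrophages, lymphocytes and adipocytes. Of these, macrophage genes summed to 65.2 to 90.2 FPKM under vehicle, 55.9 to 76.3 under L-ala and 44.9 to 64.9 under D-ala. Of 6 tested, 3 were called lower for D-ala against vehicle, 1 for L-ala against vehicle and 2 between the isomers. For D-ala against vehicle, 2 of 6 fibroblast genes were lower and 2 of 4 distal convoluted tubule genes higher. Of 5 principal cell genes 1 was higher and 1 lower there, and no podocyte or adipocyte gene was called. None of the lymphocyte genes, 0 of 9, reached the filter.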

Additional observations from a re-analysis of the deposited data

Results flagged for a closer look

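The check covered 108 groups of 5 libraries, over the named genes and over each library's ribosomal protein mean, share and length correlation. In 6 of them, the highest or lowest library lay farther from the others than Dixon's 95% critical value allows. That value is a gap of 0.71 of the group's range. All 6 were groups of named genes, and L-ala replicate 5 was not flagged in its mean, share or length correlation. Chance alone flags about 1 in 20 groups. Rps28 was at 10.6 FPKM in vehicle replicate 3, the lowest vehicle library. Rpl8 was at 628 FPKM in vehicle replicate 4 and Rps6 at 6.51 FPKM in vehicle replicate 1, each the lowest of its group. Rpl36al was at 111 FPKM in D-ala replicate 1 and Rpl34 at 215 FPKM in D-ala replicate 4, again the lowest of the group. Rps19bp1 was at 31.7 FPKM in D-ala replicate 3, the highest of its group.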

How the results depend on the processing

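Over 26 alternatives, 193 of 234 counts and medians stayed within their limits and 41 moved. Of 2232 values for named genes, 1745 kept direction and call, 393 lost the call, 51 gained one and 43 reversed. The 3 libraries of lowest depth, left out together in an alternative, were vehicle replicate 1 and L-ala replicates 4 and 5. That fit is thus also a fit without L-ala replicate 5. For D-ala against vehicle, the number of ribosomal protein genes that fell was 7 after quantile normalization, 4 with the length trend removed, 5 with the length trend removed and L-ala replicate 5 left out, 2 with voom, 2 with only the 2 groups compared, 1 without the 3 libraries of lowest depth, and 0 to 2 without 1 library. For L-ala against vehicle, the number that rose was 1 after quantile normalization, 1 with the length trend removed, 4 with voom, 3 with only the 2 groups, 19 without the lowest-depth libraries, and 1 to 42 without 1 library. The number that fell was 2 with the length trend removed, 4 with L-ala replicate 5 left out as well, and 1 with voom, and the median was 0.013 and 0.038 in the length fits. For D-ala against L-ala, 1 gene was higher with no filter, 1 with the length trend removed and 2 with L-ala replicate 5 left out as well. Lower were 7 with the length trend removed, 13 with L-ala replicate 5 left out as well, 6 with only the 2 groups, 31 without the lowest-depth libraries, and 3 to 41 without 1 library. The median was -0.069 and -0.092 in the length fits. The cause was not tested. With the length trend removed, 14.3%, 6.4% and 11.4% of all genes tested were called in the 3 comparisons, in this order. After quantile normalization these shares were 13.4%, 4.9% and 10.5%.

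Reversed log2 values for L-ala against vehicle with the length trend removed were Rpl10 -0.153, Rpl3 -0.014, Rpl34 -0.025, Rpl5 -0.004, Rps15 -0.022, Rps21 -0.006 and Rps27l -0.065. With L-ala replicate 5 left out as well they were Rpl10 -0.253, Rpl3 -0.059, Rpl34 -0.024, Rpl41 -0.01, Rpl7l1 0.015, Rplp2 -0.042, Rps21 -0.055, Rps27a -0.068 and Rps27l -0.092. After quantile normalization they were Rpl3 -0.008, Rpl8 -0.031 and Rplp0 -0.079, with voom Rpl3 -0.012 and Rpl5 -0.071, and without the lowest-depth libraries Rpl10 -0.157 and Rpl19 0.07. Without 1 library, Rpl10 ran from -0.055 to 0.158, Rpl5 from -0.066 to 0.24 and Rpl7l1 from -0.04 to 0.026. For D-ala against vehicle, Rpl21 ran from -0.118 to 0.01 and Rps28 from -0.174 to 0.001. For D-ala against L-ala with the length trend removed, Rpl19 was at 0.013, Rpl36al at 0.04, Rpl7a at 0.096 and Rps26 at 0.0, and with L-ala replicate 5 left out as well Rpl36al at 0.072, Rpl7a at 0.094 and Rps26 at 0.023. No paired analysis was possible because the labels give no replicate numbers that pair samples. Genes near 1 FPKM rest on few reads, and those under the filter were not tested.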
